A study of Arabidopsis thaliana with 3 samples.

Results

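The regions described here are all summits on chromosome 5 in the deposited 6mA immunoprecipitation peak lists of Arabidopsis thaliana, with both replicates kept apart. They were chosen by chromosome alone. There were 202 of the 673 summits in the lists, in 104 of 295 peaks. Replicate 1 held 22 of these summits in 17 peaks, and replicate 2 held 180 in 87 peaks. All samples were 9-day-old whole seedlings of the Col-0 ecotype grown with 16 h of light a day, and no treatment or genotype was compared. The groups were 1 library of sheared input DNA and 2 libraries precipitated with an antibody that binds N6-methyladenine (6mA) in DNA and its counterpart in RNA. Nothing in the labels ties the replicates to separate cultures of plants, and their spread may therefore be technical.

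6mA is an adenine with a methyl group on the nitrogen outside its ring. It is common in bacterial DNA, and its amount and placement in plant nuclear DNA are debated. A pericentromere is the gene-poor chromatin beside a centromere. In Arabidopsis it is rich in transposable elements, decayed retrotransposons and pseudogenes, and the centromere itself is built of short satellite repeats in tandem. Assemblies often collapse such repeats, so that reads from many copies pile up on few positions.

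Depth differed widely between the lists. Without duplicates, 28141317 fragments were left in replicate 1 and 995366 in replicate 2, a ratio of 28.3, and both were called against the same input of 61231606 fragments. Mean coverage of the genome was 42.3 fragments in replicate 1 and 1.77 in replicate 2. Each summit below is described by the same set of values. The pileup is the number of fragments that cover it, the fold is the authors' enrichment of that pileup over local input, and the implied background is the input level that the pileup and fold together give. Backgrounds are quoted as multiples of the library's mean coverage, where 1 is that mean. The mean counts all kept fragments, also those of the plastid and of repeats, so an ordinary nuclear position may lie below it. All positions are in TAIR10. With 1 library a replicate and summits that share their peaks, no test was made, and values are given as counts, medians and ranges.

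Most summits of replicate 1 and nearly all of replicate 2 lay in 1 locus, and that locus held regions of different kinds. The main locus spanned chr5:11664796-12065252, which is 400 kb, and held 17 of 22 summits of replicate 1 (77.3%) and 173 of 180 of replicate 2 (96.1%). Its limits were drawn around these same peaks, joined where under 100 kb apart, so these shares are a description. Joined at 10 kb, the peaks of the main locus fell into 12 stretches, a split made after the values had been seen. Peaks of both lists lay in 2 stretches, at chr5:11701892-11711875 and chr5:11723308-11736317. The other 10 held replicate 2 peaks alone. Implied background separated these groups of stretches with no overlap. In replicate 2 its median was 73.1 at the 40 summits of the stretches with both lists (17.3 to 206) and 1.74 at the 133 summits of the others (1.00 to 4.44), as multiples of mean coverage. On chromosomes 1 to 4, 28 of 169 replicate 2 summits had a background under 5 and 141 had one over 10. A gap of this kind was thus not particular to this locus.

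**Figure D1:**
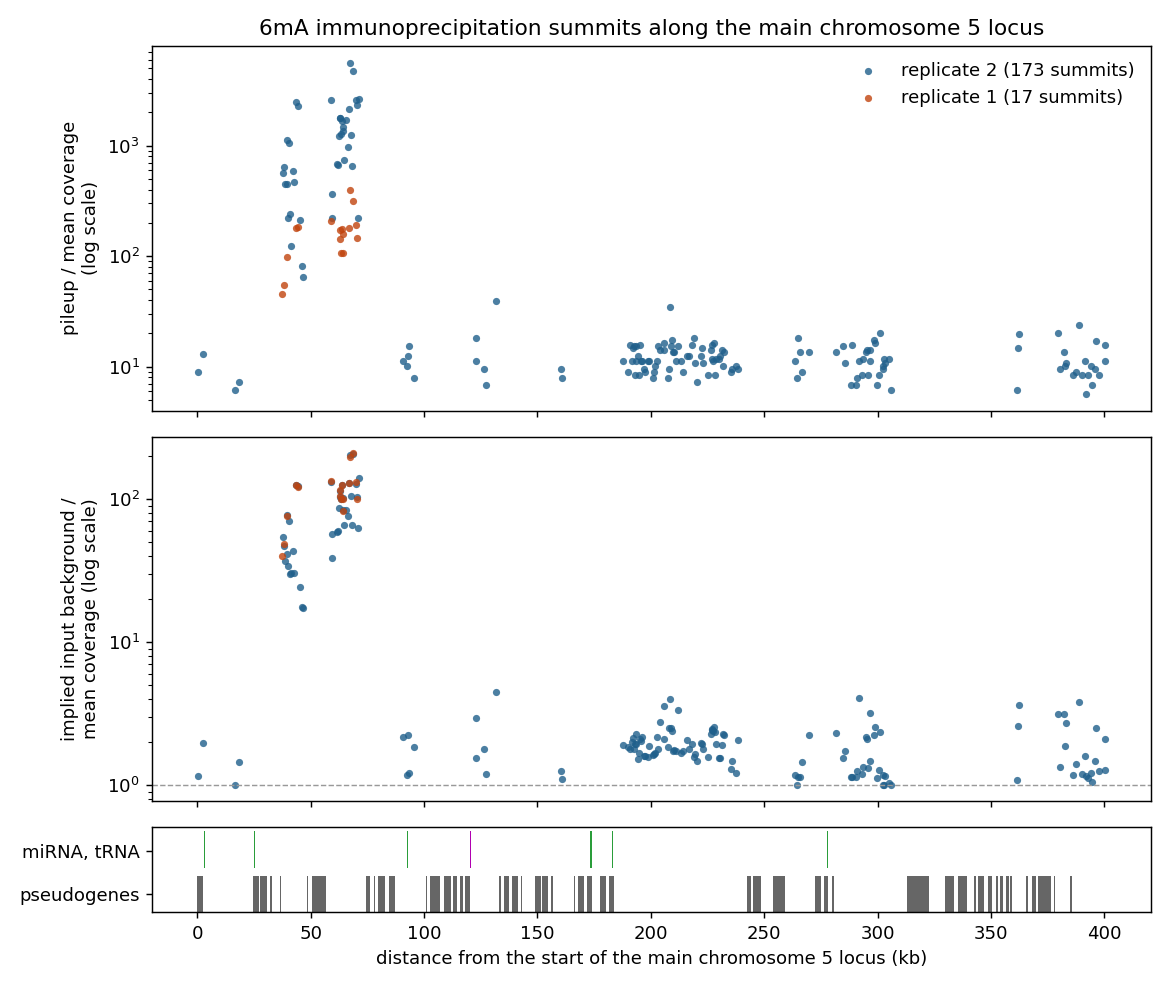
Pileup over mean coverage (top, log scale) and implied input background over mean coverage (middle, log scale) at each summit of the main locus against distance from its start in kb, with annotated pseudogenes, miRNA and tRNA genes as bars below. The 17 summits of replicate 1 share 2 stretches with 40 summits of replicate 2 at backgrounds of 17.3 or more, while the other 133 summits of replicate 2 sit at 4.44 or less.

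The stretches with both lists held the highest fold of the chromosome in each list and, in replicate 2, the highest pileup. The first, 9.98 kb long, had pileups of 1919 to 7804 fragments at 5 summits of replicate 1 and of 114 to 4416 at 16 summits of replicate 2. The second, 13.0 kb long, had 4494 to 16930 at 12 summits of replicate 1 and 394 to 10010 at 24 of replicate 2. Peaks covered 84.6% and 84.3% of these stretches in replicate 2, against 17.9% and 27.2% in replicate 1. Most of both stretches was therefore called in the shallow library and separate points of them in the deep one.

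The position of highest fold in both lists lay in the second stretch, 7.00 kb from the pseudogene AT5G31821. In replicate 1 its summit at chr5:11732273 had a pileup of 16930 and a fold of 2.02, and in replicate 2 the summit at chr5:11732270 had 10010 and 27.6. Next in replicate 2 came chr5:11733672, with a pileup of 8441 and a fold of 23.1. Both stood on a background near 200 times the mean coverage (204 and 206). The other summits among the 5 highest folds of replicate 2 were at 11735195 (22.4), 11730504 (20.5) and 11734878 (20.4), all nearest to AT5G31821, and the third highest pileup was 4674 at 11736059. In replicate 1 the 5 highest folds also included 11723680 and 11728880 in this stretch (1.56 each, nearest to the pseudogene AT5G31804), and 2 summits outside the main locus described further on. Every fold of replicate 1 on the chromosome, 1.06 to 2.02, lay below every fold of replicate 2, 2.24 to 27.6.

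Within these stretches, fold went with background. Spearman's rho between fold and implied background was 0.75 over 17 summits of replicate 1 and 0.80 over 40 of replicate 2. The summits share libraries, the input and often a peak, and background enters the fold as its denominator, so these are descriptions. Within these 2 stretches, positions deeper in the input thus tended to have higher enrichment over it. The site of deepest background on the chromosome, outside the main locus, had folds of at most 5.91 in replicate 2 and of 1.52 to 1.75 in replicate 1. In the stretches with replicate 2 alone, rho was -0.21 over 133 summits.

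The 10 stretches with replicate 2 alone were of another kind, many weak peaks on background near the mean coverage. They held 133 summits in 76 peaks, and the 3 largest held 108 of the 133. Pileup there was 20 fragments at the median and 10 to 69 in range, against 1797 (114 to 10010) at the replicate 2 summits of the stretches with both lists. Fold was 5.13 (median, range 2.56 to 10.9), against 13.4 (range 3.50 to 27.6). The pileups did not overlap between these kinds of stretch, while the folds did. A pileup of 20 carries an exact 95% Poisson interval of 12.2 to 30.9, for counting error only, so single folds here are coarse. Only summits past the q cutoff of 0.05 are listed, and the lowest fold among them was 2.56. Replicate 1, with 28.3 times the kept fragments, had no peak in these stretches. Its folds elsewhere on the chromosome went down to 1.06, but that one stood on a background of 99.9 times the mean coverage. None of its summits on the chromosome had a background under 9.09, so its folds elsewhere do not show what fold it could call here. Why it had no peak here was not tested. At 5 summits the background was within 2% of the mean coverage, the lowest value that occurred. It was counted as a floor, so the input at these summits may have been lower.

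The largest stretch of this kind, chr5:11852465-11903326, packed 63 summits in 30 peaks into 50.9 kb. Its peaks covered 51.0% of it, with gaps of 681 bp between neighbours (median, range 258 to 2443). Pileups of 13 to 61 fragments recurred along it, with a median of 20, and the median background was 1.91 (1.20 to 4.02). The stretch at chr5:11946163-11971102 held 26 summits in 15 peaks with the same median pileup of 20 and a background of 1.30. The stretch at chr5:12043911-12065252 held 19 summits in 13 peaks with a median pileup of 18 and a background of 1.41. Over all 10 stretches, 122 of 133 summits had a pileup of 30 fragments or less.

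A few summits stood above the rest of these stretches and were picked out after their values were seen. At chr5:11796628 a peak 242 bp wide had a pileup of 69 (exact Poisson interval 53.7 to 87.3), a fold of 7.90 and a background of 4.44. At chr5:11873442 the pileup was 61, and at chr5:12053643 it was 42, the only other pileup over 40. The highest fold, 10.9 at chr5:11929510, 5.39 kb from the pseudogene AT5G32280, came from a pileup of 32 on a background of 1.14. The lowest background of the chromosome, the floor of 1.00, was shared by 5 summits with pileups of 11 to 21. Among them was chr5:11967354, with a pileup of 17 and a fold of 6.48.

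The replicates were compared where their peaks met. On chromosome 5, 15 of 17 replicate 1 peaks overlapped a replicate 2 peak (88.2%), where the share over all nuclear peaks of replicate 1 was 70.3%. In the other direction it was 8 of 87 (9.20%), against 19.4% over all nuclear peaks of replicate 2. Inside the main locus these counts were 12 of 12 and 6 of 84. The low share of replicate 2 thus comes with the 76 peaks of the stretches where replicate 1 had no peak. Because both lists were called against 1 input, shared positions cannot be told apart from features of that input. When 50% of both peaks had to be shared, 0 peaks of either list counted as overlapping, and replicate 2 peaks were the wider ones, as described below.

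Summit positions were close between replicates. Of the 22 replicate 1 summits, 18 had a replicate 2 summit within 50 bp, at 9.5 bp in the median (range 2 to 46). Both lists share 1 input, so implied backgrounds at these pairs were near equal by design, with a ratio of 1.00 (median, range 0.971 to 1.04). The folds of a pair thus refer to nearly equal input. Fold was higher in replicate 2 at 18 of 18 pairs, by 12.0 times in the median.

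The size of that difference varied with place. At the 15 pairs inside the main locus, fold of replicate 2 over replicate 1 was 12.3 (median, range 9.20 to 15.2). At the 3 pairs outside it was 2.08, 3.78 and 3.88, below all pairs inside. Pileup divided by kept fragments had ratios of 11.1 to 17.7 inside and 2.46 to 4.64 outside. Because the backgrounds of a pair were near equal by design, these ratios restate the fold ratios and are no separate measure. At chr5:11732273, for example, the pileup was 400.1 times the mean coverage in replicate 1, and at its match in replicate 2 it was 5657 times. With 1 library each, this is a difference between libraries, and its cause was not tested.

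**Figure D2:**
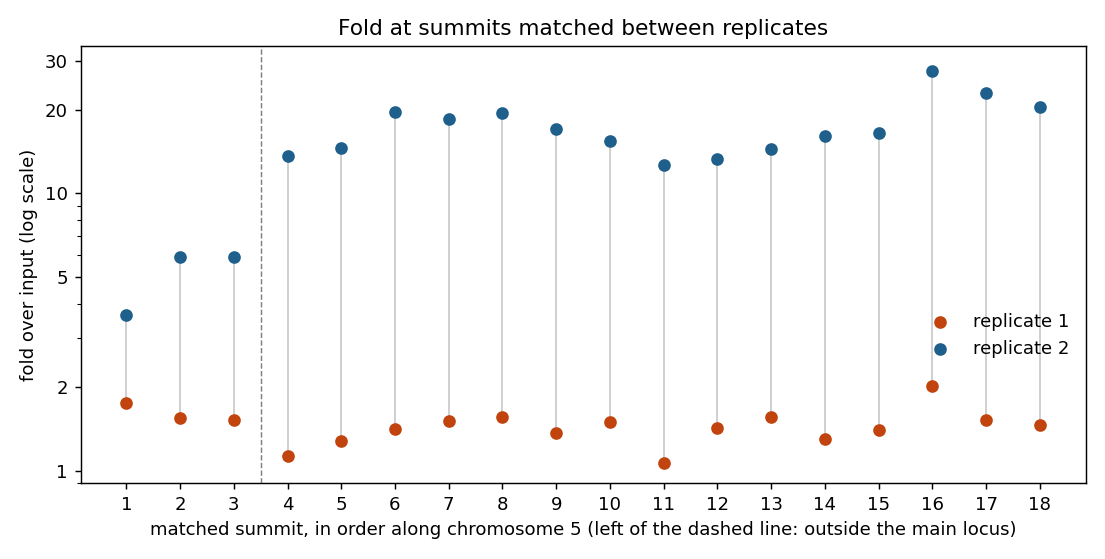
Fold over input (log scale) in replicate 1 and replicate 2 at the 18 summits matched within 50 bp, in order along the chromosome, with a grey line joining each pair and a dashed line between the 3 outside the main locus and the 15 inside. Replicate 2 is higher at each, and the gap is smaller at the 3 on the left.

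Replicate 2 summits without a replicate 1 summit were in the median the weaker ones of their stretches. In the stretches with both lists inside the main locus, the 15 matched summits had pileups of 1143 to 10010 (median 3151) and folds of 12.7 to 27.6 (median 16.5). The 25 unmatched had pileups of 114 to 4674 (median 993) and folds of 3.50 to 22.4 (median 11.1). Their background was lower too, with a median of 57.0 against 123. The ranges overlapped. For replicate 1, the summits without a match were at 11702218 and 11735260, both inside a replicate 2 peak, and at 12877711 and 12886441, far from any.

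Spacing of summits was then examined for a repeat unit, which a tandem satellite would have. Neighbouring summits of the same peak lay 403 bp apart in replicate 2 (median of 93, quartiles 344 and 503, range 228 to 908) and 301 bp apart in replicate 1 (median of 5, range 257 to 372). Of the 93, 14 lay 200 to 299 bp apart, 29 lay 300 to 399 bp, 26 lay 400 to 499 bp and 24 lay 500 bp or more. No neighbours were under 200 bp apart, and 3 of the 93 were closer than the fragment size of 240 bp. Summits closer than about a fragment were therefore almost absent, and a shorter repeat could show only through multiples of its length.

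Both kinds of stretch had like spacing in spite of their unlike depth. The median in replicate 2 was 404 bp in the stretches with both lists (32 neighbours, quartiles 316 and 537) and 403 bp in the stretches with replicate 2 alone (57 neighbours, quartiles 347 and 476). On chromosomes 1 to 4 it was 483 bp in replicate 2 (117 neighbours, quartiles 349 and 573) and 318 bp in replicate 1 (41 neighbours). The quartile ranges overlap. On each of the 5 nuclear chromosomes the median spacing was wider in replicate 2, whose fragments were also longer, 240 bp against 203 bp, and whose peaks were wider.

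A scan of trial periods gave low maxima for replicate 2 on chromosome 5, most of them broad. For each period from 100 to 400 bp, the mean cosine of the distances between summits of the same peak was taken, up to 2000 bp apart. The mean cosine is 1 where all distances are multiples of the period and near 0 where they have no relation to it. In replicate 2 it was highest at 383 bp, where it was 0.23 over 201 distances. The stretches with both lists peaked at 367 bp (0.25 over 90 distances) and those with replicate 2 alone at 399 bp (0.31 over 106 distances). These broad maxima lie beside the median spacing itself. At 178 bp, the usual length of the centromeric satellite unit of this species, it was 0.06 in the former and 0.02 in the latter. The stretches with replicate 2 alone had a narrow second maximum at 101 bp (0.28), where the stretches with both lists had none of that height. In replicate 1 the highest value was 0.59 at 295 bp, from only 8 distances. Other chromosomes gave other periods in replicate 2, from 101 bp on chromosome 1 (0.59 over 35 distances) to 279 bp on chromosome 2 (0.23 over 62). The maxima on chromosomes 3 and 4 were at 202 bp (0.43 over 21 distances) and 253 bp (0.16 over 209). The plastid chromosome also had its maximum at 202 bp (0.36 over 43). The nuclear chromosomes thus shared no single maximum, although 101 bp was the maximum on chromosome 1 and the second one in the stretches with replicate 2 alone. As no chromosome 5 neighbours were under 200 bp apart, the value at 101 bp there comes only from distances near its multiples. It is therefore not separate from the spacing itself, and a unit of that length was not tested.

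**Figure D3:**
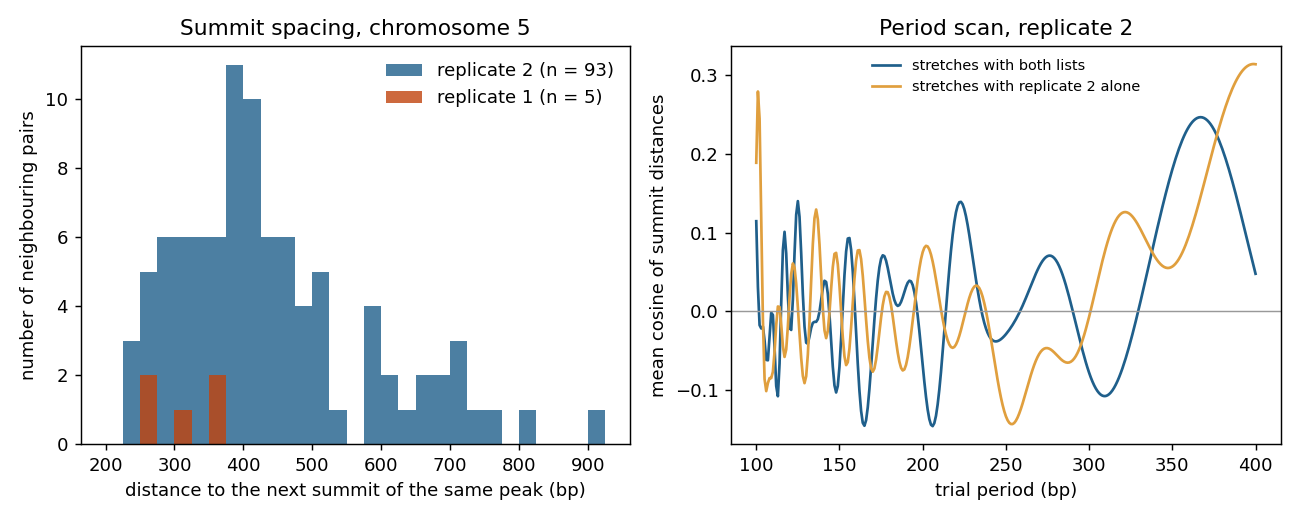
Left, number of neighbouring summit pairs of the same peak by distance in bp on chromosome 5 for each replicate; right, mean cosine of distances between summits against the trial period in bp for replicate 2, in the stretches with both lists and with replicate 2 alone. Of the replicate 2 distances, 55 of 93 lie between 300 and 500 bp, and the curves have low, broad maxima at 367 and 399 bp.

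Peaks with more summits were in general wider. In replicate 2, 45 of 87 peaks had 1 summit and a width of 386 bp (median, range 240 to 866), 23 had 2 summits and 897 bp (range 523 to 1208), and 9 had 3 summits and 1223 bp (range 943 to 1619). The widest, 3856 bp at chr5:11726041-11729896, had 10 summits. The steps between these first medians are of the order of the spacing above, and peaks with 5 or more summits, 7 in all, were 2408 to 3856 bp wide with no even steps. In replicate 1, 14 of 17 peaks had 1 summit and a width of 311 bp (median, range 211 to 531).

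Widths differed between the kinds of stretch. Replicate 2 peaks were 2518 bp wide in the stretches with both lists (median of 8, range 503 to 3856) and 575 bp in the others (median of 76, range 240 to 2732). Over the main locus the median was 635 bp in replicate 2 and 368 bp in replicate 1. The smallest widths are set by the caller, which asks for at least the fragment length. In replicate 2, 6 of 87 peaks were within 10 bp of that limit, and in replicate 1, 1 of 17.

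**Figure D4:**
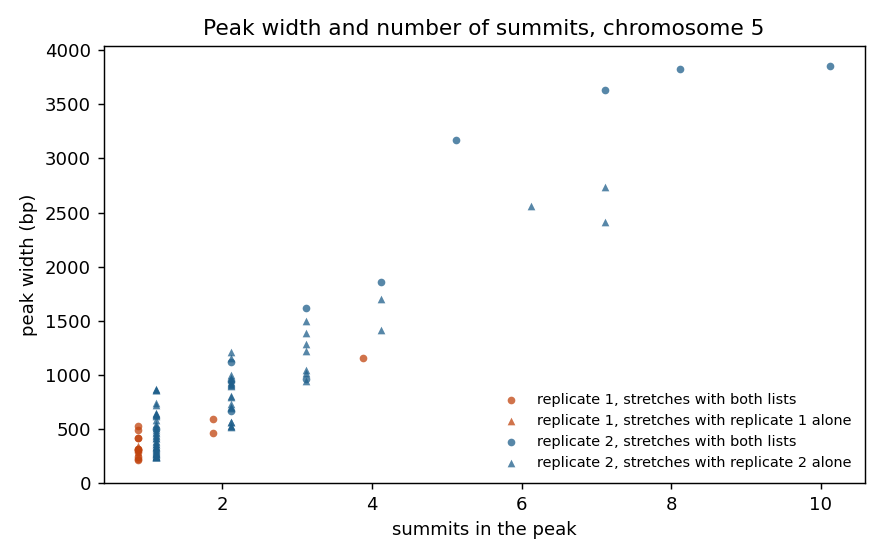
Width in bp of each chromosome 5 peak against its number of summits, by replicate and kind of stretch (circles, stretches with both lists; triangles, stretches with 1 list). Peaks with more summits are in general wider, up to 3856 bp at 10 summits in replicate 2.

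The peaks lay between annotated pseudogenes more than in them. The main locus holds 52 pseudogenes, 6 miRNA genes, 1 tRNA gene and 0 protein-coding genes in a RefSeq table, and pseudogenes cover 28.3% of its bases. Peak bases of replicate 2 lay in pseudogenes for 0.486%, and those of replicate 1 for 0. On chromosome 5, 0 of 17 replicate 1 peaks overlapped a pseudogene, against 4.05% of all nuclear peaks of that list, and 1 of 87 replicate 2 peaks (1.15%), against 3.6%. All 17 replicate 1 peaks and 85 of 87 replicate 2 peaks (97.7%) lay between annotated genes, where the shares over all nuclear peaks were 58.1% and 88.5%. The table has 0 entries classed as transposable element genes. Whether such elements lie among its pseudogenes or between its genes was not determined.

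Annotated features under a peak were few. The pseudogene AT5G31702 was overlapped for 361 bp by the whole of the replicate 2 peak at chr5:11664796-11665156 (pileup 16, fold 5.59). The miRNA gene MIR5643b was overlapped for 82 of its 83 bp by the peak at chr5:11757141-11758427, whose nearest summit, 0.023 kb from the gene, had a pileup of 18 and a fold of 6.17. The summit of highest fold in that peak (8.95 at a pileup of 27) was 1.03 kb from the gene. The related gene MIR5643a lay 103 bp from the peak at chr5:11667357-11667694 (pileup 23, fold 5.33). The 4 genes of the MIR854 family in the locus, whose precursors lie in Athila retrotransposons, were farther off, at 3.48 to 12.1 kb from a replicate 2 peak. So both MIR5643 genes were at or near a peak and the MIR854 genes were not. The tRNA gene AT5G32017 lay 2.39 kb away.

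Instead 179 of 180 replicate 2 summits and 22 of 22 of replicate 1 lay in stretches without an annotated gene, mostly in long ones. Chromosome 5 has 7088 such stretches with a median length of 0.764 kb. The longest, 58.8 kb between AT5G32228 and AT5G32241, held 63 replicate 2 summits, and peaks covered 44.1% of it. The fifth longest, 32.2 kb between AT5G32312 and AT5G32345, held 26 (31.6% covered), and the sixth, 21.4 kb between AT5G04955 (MIR5643a) and AT5G31719, held 2 (5.33%). The stretch of 17.7 kb between AT5G31804 and AT5G31821 held 12 summits of replicate 1 and 24 of replicate 2 (20% and 61.9% covered), and that of 11.4 kb between AT5G31770 and AT5G31787 held 5 and 16 (15.7% and 74.4%). These are where both lists had peaks.

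Stretches with summits were mostly long ones, but many long ones had none. Summits of either list lay in 16 of all 7088 gene-free stretches of the chromosome and in 8 of the 20 longest. The second longest, 46.4 kb between AT5G34412 and AT5G34431, held 2 of replicate 1 and 0 of replicate 2. The third, 40.8 kb between AT5G29577 and AT5G29580, and the fourth, 35.0 kb between AT5G34358 and AT5G34376, held none of either list. Inside the main locus, 14 of 55 gene-free stretches held summits, with a median length of 12.1 kb, and the other 41 had a median of 1.31 kb. Only 1 of the 14 was shorter than 1 kb, at 0.582 kb, and the longest without a summit was 7.14 kb. A longer stretch has more room for a summit, so these lengths are a description. Per 10 kb, replicate 2 summits ranged over these 14 from 0.935 to 17.2, the latter from 1 summit in 0.582 kb. The longest stretch had 10.7. At the summits of the stretches with replicate 2 alone, the nearest annotated gene was 10.1 kb away (median, range 0 to 28.9), and in those with both lists 4.70 kb (range 0.636 to 8.77).

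**Figure D5:**
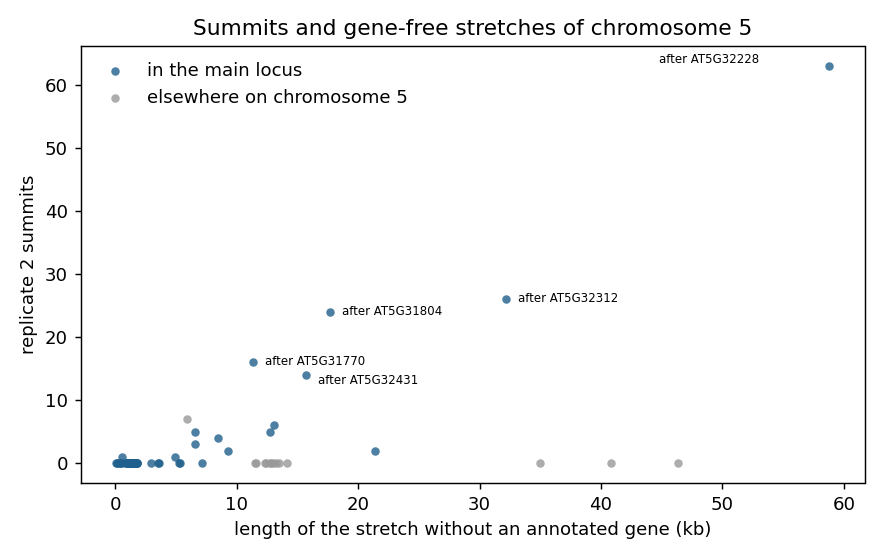
Number of replicate 2 summits against length in kb for stretches of chromosome 5 without an annotated gene, shown for the 20 longest, all that hold a summit and all in the main locus. The longest, 58.8 kb in the main locus, holds 63 summits, while 3 others over 30 kb hold none of replicate 2.

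Outside the main locus there were 2 sites. The first, chr5:11184583-11187884, lay between the pseudogene AT5G29550 and the protein-coding gene AT5G29560, the only protein-coding gene nearest to a summit of the chromosome. Replicate 1 had peaks at 11184967 to 11185191, 11185563 to 11185977 and 11186280 to 11186585, with pileups of 13183, 21410 and 16913 and folds of 1.75, 1.55 and 1.52. Replicate 2 had peaks at 11184583 to 11185253, 11185533 to 11186647 and 11186920 to 11187884, with highest folds of 3.64, 5.91 and 3.46 and pileups of up to 1148, 3445 and 422. The site had the deepest background of the chromosome, 326 times the mean coverage at 11185767 in replicate 1 and 331 at 11185805 in replicate 2. In replicate 1 its highest pileup, 21410, was above the 16930 of the main locus, while in replicate 2 its highest, 3445, was below the 10010 there.

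The second site was in replicate 1 alone, in the gene-free stretch before AT5G34431. Its peaks at chr5:12877520-12877807 and chr5:12886392-12886736 had pileups of 823 and 467, folds of 1.36 and 1.21, and backgrounds of 14.2 and 9.09, the lowest of that list on the chromosome. The nearest replicate 2 peaks were 812 and 821 kb away. At the depth of replicate 2, these backgrounds amount to 25.2 and 16.1 fragments, and the same folds would give pileups of 34.8 and 19.7. Both lie within the exact 95% Poisson intervals of such background counts (16.2 to 36.9 and 9.15 to 26.0). At the matched pairs, however, folds in replicate 2 were 2.08 to 15.2 times those in replicate 1, and the part of depth in the missing peaks was not tested.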

How the data were processed

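Genomic DNA from 9-day-old seedlings was sheared by sonication, precipitated and sequenced in paired-end mode, per the labels' protocols. The submitters' processing notes name Trim Galore, a read trimmer, and the TAIR10 build. The aligner, and how fragments that match several repeat copies were placed, are not given in the sources used here, so positions within repeats rest on that step. Peaks and their summits were called with MACS 2.2.6, per the file headers, for each replicate apart against 1 input, at a q cutoff of 0.05 with 1 fragment kept per position. The pileup is a signal value, the fragments over the summit without division by depth, per the file headers. The fold is the caller's linear ratio of pileup to input background, deposited by the authors, and that background includes regional windows, per the file headers. The −log10 p-values and −log10 q-values are those of the same caller, per the file headers, and only the q-values served here, as a threshold.

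From these lists the implied background was computed as (pileup + 1)/fold − 1, and divided by mean coverage (kept fragments times fragment size over 135 Mb). Summits were matched within 50 bp, peaks by an overlap of at least 1 bp. Periods of 100 to 400 bp were scanned over distances of up to 2000 bp. Functions were tested on simulated data. Python 3.11.15, numpy 2.4.6, pandas 2.3.3, scipy 1.17.1 (Poisson intervals) and matplotlib 3.10.9 were used. Gene names, distances and gene-free stretches rest on RefSeq annotation (TAIR10.1, 8420 genes on chromosome 5), taken to share nuclear positions with TAIR10, and none of its coordinates is printed.

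Named by rule were, in each replicate, the 5 summits of highest fold, the 3 of highest pileup, those of highest and lowest background, every peak outside the main locus, genes under a peak, the genes nearest the strongest summits, and those beside the 3 longest gene-free stretches with summits. Regions, lists and rules were chosen with earlier results of these data known. Alternatives covered thresholds, matching, overlap, units counted, period limits and leaving out a replicate.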

Additional observations from a re-analysis of the deposited data

How the results depend on the processing

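Of 61 alternative values for 23 results, 53 stayed within 1 SD of the replicates (of the matched pairs for the fold ratio), or within 1.5 times for counts, and 8 moved. The replicates differ widely in background, and also in spacing and period, so that limit is a loose one there. Among values that counted as unmoved, the period ran from 364 to 396 bp in replicate 2 and from 276 to 318 bp in replicate 1. The median spacing of replicate 2 reached 457 bp in place of 403 bp. The count of peaks that overlap the other list fell from 15 in replicate 1 and 8 in replicate 2 to 0 and 0 when a reciprocal overlap of 50% was asked for. The median width of replicate 2 peaks in the main locus rose from 635 bp to 957 bp for peaks with a −log10 q of at least 10, and to 1019 bp when each summit counted. With any successive summits under 1000 bp apart as neighbours, the median spacing of replicate 1 was 524 bp in place of 301 bp. Taking the highest-fold summit of each peak, the median background of replicate 2 outside the main locus was 178 times the mean coverage in place of 79.4. The cause of these shifts was not tested. Pooled over both lists, the median spacing was 402 bp and the period 383 bp. Leaving out 1 replicate gave 301 to 403 bp for the spacing and 295 to 383 bp for the period, the lower value in each case without replicate 2, when 5 neighbours were left. A scan of periods up to 600 bp, added after the data were seen, moved no period. No paired analysis was possible because the 2 replicates form 1 group, with 1 input library shared by both. Depth limits replicate 2 most, where pileups of 10 carry an exact Poisson interval of 4.80 to 18.4.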
